A study of Drosophila melanogaster with 8 samples.

Results

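Of 10 genes that encode kinesin motors of the mitotic and meiotic spindle, 8 had lower mRNA levels in wing discs of Drosophila melanogaster larvae without Myb. Of all tested genes, 17.5% were lower. The 10 genes were cmet, cana, ncd, Klp61F, Klp3A, Klp10A, Klp67A, neb, pav and nod. They were taken by gene symbol from a table of 14300 genes, a set put together with earlier results of these data known, and all 10 were among the 9076 genes tested. Wing discs are the larval tissue that gives rise to the adult wing and notum, and their cells divide actively in the third larval instar. RNA with a polyA tail was sequenced from discs of male larvae kept at 25°C, in 5 libraries from Myb mutants and 3 from yw67 controls. The mutants carried the null allele MH107, a deletion made by mobilizing a P element that also reaches the neighbouring gene AlkB. The line had been crossed into the control background over several generations, the mutant males lacked the GFP of the balancer chromosome, and they die as early pupae. No line with Myb restored was among these libraries.

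Kinesins are motor proteins that use ATP to walk along microtubules or to take them apart. In mitosis, one class pushes the spindle poles apart, another pulls microtubules together at the poles, others carry chromosomes to the middle of the spindle or trim microtubule ends, and a last class builds the central spindle on which cytokinesis depends. Myb is the single fly member of its family and belongs to the dREAM complex, which acts at promoters of many genes of mitosis. In whole discs, a lower count can come from fewer dividing cells or from less mRNA in each of them, and the libraries cannot tell the 2 apart.

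Myb itself fell from 300.7 ± 4.94 CPM (counts scaled to the normalized library size, SD, n = 3) in controls to 5.79 ± 1.13 CPM (n = 5) in mutants. AlkB had 1274 counts over the control libraries and 0 over the mutant libraries, a level at least 745.7-fold higher in controls when a floor of 3 counts over the mutant group is used. Library totals ran from 50562199 to 65322440 counts. The study's protocol text calls the libraries biological replicates, whereas the sample descriptions place the 3 control libraries in 1 biological replicate and the mutant libraries in 2, so the p-values measure the spread between libraries, which may be technical. Control library 2 stood apart: it differed from the other control libraries by a median coefficient of variation of 9.56% and 10.7% per gene, where those 2 differed by 4.00% and mutant libraries by 3.15% to 4.91%. Of 15 wing disc genes, all of them tested, 4 were higher and 0 lower in mutants. Of 9 tested hemocyte (blood cell) genes, 7 were lower, with a median log2 fold change of -3.79. The summed level of that list was 574.3 to 663.0 CPM in controls and 330.1 to 399.4 CPM in mutants. Cg25C and vkg had the highest levels in the list, and their mutant levels were 83.5% and 97.5% of control. The mutant levels of Hml and Pxn were 3.0% and 5.34% of control. Of the tested genes of fat body, salivary gland, trachea and myoblasts, 0 of 7, 0 of 7, 2 of 6 and 1 of 9 were lower and 0, 0, 1 and 1 higher. Beside these tissue counts, 17.5% of all tested genes were lower and 16.9% higher. Fewer attached blood cells and less hemocyte mRNA in each of them cannot be told apart here. Whether either had a part in the values below was not tested.

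By edgeR's quasi-likelihood test at a Benjamini-Hochberg adjusted p below 0.05, 8 of the 10 were lower in Myb mutants, beside 17.5% of all tested genes, and 0 were higher, beside 16.9%. The median log2 fold change was -0.45 over the motors and 0.01 over all tested genes. Of the motors, 3 were lower by 2-fold or more (cmet, neb and pav), beside 2.42% of all tested genes. In the same 8 motors every mutant library lay below every control library, as it did for 19.3% of all tested genes. Summed over the 10 genes, the level was 1808.5 ± 130.8 CPM in controls (SD, n = 3) and 1232.3 ± 16.3 CPM in mutants (n = 5), or 68.1% of the control level.

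**Figure D1:**
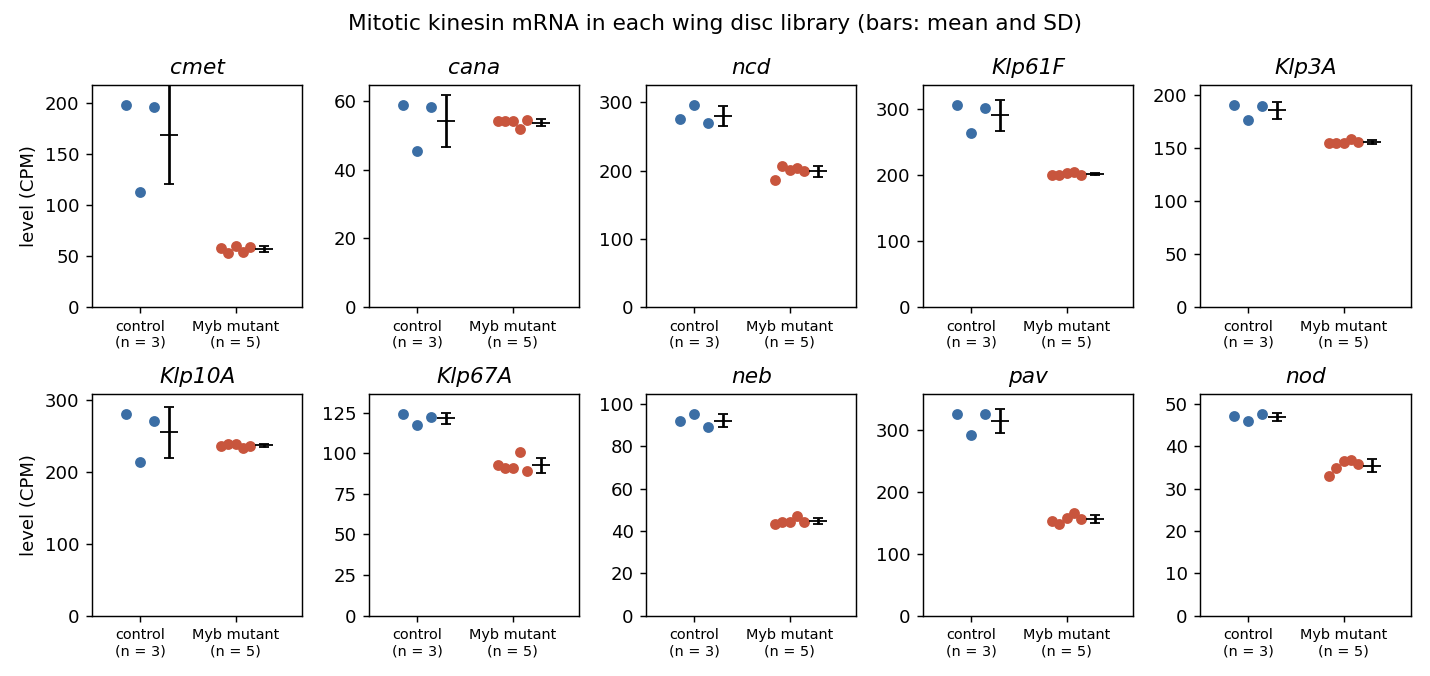
Level of each motor mRNA in each library, in CPM on linear axes that start at 0, with control libraries in blue, Myb mutant libraries in red and the mean and SD of each group beside them. The groups are apart for 8 genes and overlap for cana and Klp10A, where control library 2 is the lowest of all 8 libraries.

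The largest change was in a motor of the kinetochore. cmet encodes CENP-meta, a relative of human CENP-E that carries chromosomes to the metaphase plate and holds them there. Its level was 197.5, 112.4 and 195.9 CPM in the control libraries and 58.2, 52.5, 59.3, 54.1 and 58.5 CPM in the mutant libraries. The mutant libraries lay close together and below every control library, while control library 2 lay well below the other controls. The log2 fold change was -1.58 ± 0.16 (SE) with an edgeR adjusted p of 0.00014, the 157th lowest of 9076 genes. Without control library 2 it was -1.80.

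cana encodes CENP-ana, the paralog of cmet. Its level was 58.9, 45.6 and 58.4 CPM in controls and 54.2, 54.3, 54.2, 51.8 and 54.6 CPM in mutants. The mutant libraries lay between control library 2 and the other controls, and the log2 fold change was -0.01 ± 0.08 (SE, edgeR adjusted p = 0.92). Without control library 2 it was -0.13 ± 0.03, with an edgeR adjusted p of 0.019, so that the call turned on this library.

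The paralogs are neighbours on chromosome arm 2L. In the BDGP6 annotation, cmet lies on the minus strand at 2L:11261026-11269002 and cana on the plus strand at 2L:11269780-11277846, head to head, with 778 bases between their starts. The study took opposite-strand genes with starts within 1000 bases as a divergent pair. The ratio of cmet to cana within a library was 3.35, 2.46 and 3.36 in controls and 1.07, 0.965, 1.09, 1.04 and 1.07 in mutants. Every mutant ratio lay below every control ratio. The mean log2 ratio fell by 1.53, with a two-sided exact permutation p of 0.0357, the smallest that 3 against 5 libraries allow, and 0.0446 after Benjamini-Hochberg adjustment over the 5 pairs of motors compared. Their exon lengths are close, at 7.01 and 6.97 kb, and without control library 2 the difference was -1.68. Counts of these paralogs rest on how unique reads were assigned between them.

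Klp61F and ncd act against each other in the spindle. Klp61F forms bipolar tetramers that slide antiparallel microtubules apart and so separate the poles, whereas Ncd moves toward minus ends and draws microtubules together at the poles. The level of Klp61F was 305.7, 263.0 and 301.3 CPM in controls and 199.9, 199.6, 203.2, 203.7 and 199.7 CPM in mutants. That of ncd was 275.0, 296.0 and 269.1 CPM in controls and 185.8, 206.3, 200.3, 204.0 and 199.3 CPM in mutants. For both genes the groups did not overlap. The log2 fold change was -0.53 ± 0.05 (SE) for Klp61F and -0.49 ± 0.05 for ncd, with edgeR adjusted p-values of 0.00014 and 0.00015. The ratio of Klp61F to ncd ran from 0.889 to 1.12 in controls and from 0.968 to 1.08 in mutants, and no difference in it was detected (log2 difference -0.03, control SD 0.19, mutant SD 0.06, exact permutation p = 0.714). Leaving out control library 2, where the ratio was 0.889, gave a log2 difference of -0.14. Every mutant ratio lay below the 1.11 and 1.12 of control libraries 1 and 3, so the overlap rested on control library 2.

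The motors of the central spindle fell by different amounts. pav encodes Pavarotti, the motor subunit of centralspindlin, which bundles the central spindle and positions the cleavage furrow. Its level was 326.0, 292.2 and 325.4 CPM in controls and 153.7, 148.3, 157.3, 165.2 and 156.3 CPM in mutants. The mutant level was 49.7% of control, with a log2 fold change of -1.01 ± 0.05 (SE, edgeR adjusted p = 2.3e-06).

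Klp3A, a chromosome-associated motor that also works at the central spindle, was at 190.1, 176.1 and 189.3 CPM in controls and at 154.1, 154.1, 154.7, 158.1 and 155.4 CPM in mutants. This was the smallest change among the 8 motors called in the fit of all libraries. The log2 fold change was -0.25 ± 0.04 (SE), with an edgeR adjusted p of 0.0012. The ratio of pav to Klp3A was 1.71, 1.66 and 1.72 in controls and 0.997, 0.963, 1.02, 1.05 and 1.01 in mutants. Its log2 value fell by 0.76 (exact permutation p = 0.0357, adjusted 0.0446), so pav fell further than Klp3A in each mutant library.

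Klp10A and Klp67A both shorten microtubules. Klp10A is a depolymerase of the spindle poles, and Klp67A acts at plus ends and limits spindle length. The level of Klp10A was 281.3, 214.3 and 270.7 CPM in controls and 236.5, 239.9, 239.9, 233.3 and 236.6 CPM in mutants. As for cana, the mutant libraries lay between control library 2 and the other controls. The log2 fold change was -0.11 ± 0.08 (SE, edgeR adjusted p = 0.34), and without control library 2 it was -0.22 ± 0.03 (edgeR adjusted p = 0.0012).

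The level of Klp67A was 124.2, 117.6 and 122.5 CPM in controls and 92.5, 90.7, 90.7, 100.7 and 89.0 CPM in mutants. The groups did not overlap, and mutant library 4 was the highest of the mutants. The log2 fold change was -0.39 ± 0.05 (SE, edgeR adjusted p = 0.0003). The ratio of Klp10A to Klp67A was 1.82 to 2.27 in controls and 2.32 to 2.66 in mutants, a rise of 0.29 on the log2 scale (exact permutation p = 0.0357, adjusted 0.0446), and of 0.19 without control library 2, where the control ratio had been lowest.

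neb and nod complete the set. neb encodes Nebbish, a relative of the human cytokinesis motor KIF14, and nod encodes a chromosome-arm motor known for holding achiasmate chromosomes on the spindle of female meiosis. The level of neb was 91.9, 95.3 and 89.1 CPM in controls and 43.4, 44.3, 44.5, 46.9 and 44.5 CPM in mutants. That of nod was 47.3, 46.0 and 47.7 CPM in controls and 33.1, 35.0, 36.5, 36.8 and 35.9 CPM in mutants. Both sets of groups were well apart, and in neither gene did control library 2 stand apart. The log2 fold change was -1.04 ± 0.04 (SE) for neb and -0.41 ± 0.05 for nod, with edgeR adjusted p-values of 1.6e-07 and 0.00023. The ratio of neb to nod was 1.87 to 2.07 in controls and 1.22 to 1.31 in mutants (log2 difference -0.63, exact permutation p = 0.0357, adjusted 0.0446).

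**Figure D2:**
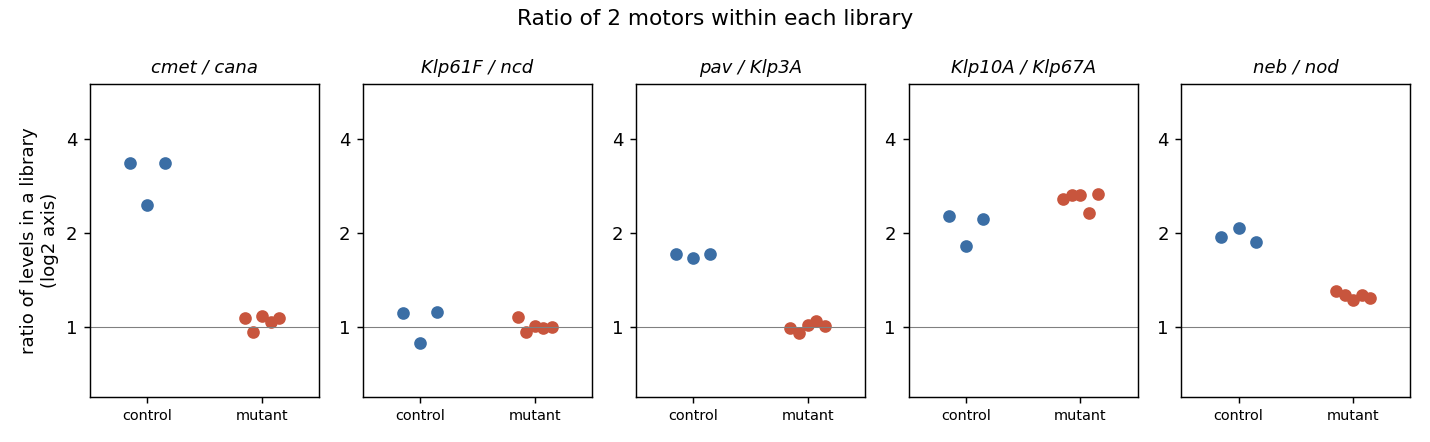
Ratio of the CPM levels of 2 motors within each library, on a log2 axis, with control libraries in blue and Myb mutant libraries in red. The mutant ratios lie below all control ratios for cmet to cana, pav to Klp3A and neb to nod, above them for Klp10A to Klp67A, and among them for Klp61F to ncd.

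The unequal changes altered the makeup of the motor mRNA. cmet gave 9.22% ± 2.12 (SD, n = 3) of the summed level of the 10 motors in controls and 4.59% ± 0.267 (n = 5) in mutants. pav went from 17.4% ± 0.221 to 12.7% ± 0.376, and neb from 5.12% ± 0.544 to 3.63% ± 0.0634. The depolymerase Klp10A gave 14.1% ± 1.02 of the sum in controls and 19.3% ± 0.394 in mutants, where it was the largest share of all 10. Klp61F held 16.0% ± 0.146 and 16.3% ± 0.112. These shares add up to the whole, so a lower share of one motor raises the others.

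Per kb of exon, the order of the levels changed as well. In controls ncd led with 103.0 ± 5.19 CPM per kb (SD, n = 3), followed by pav with 98.1 ± 6.03, and the libraries of these neighbours overlapped. Klp61F had 74.9 ± 6.06, apart from its neighbours on either side. Klp10A, Klp3A and Klp67A came next with 49.6 ± 7.0, 40.9 ± 1.73 and 39.3 ± 1.1 CPM per kb, and each overlapped the next. neb, cmet and nod had 25.6 ± 0.861, 24.1 ± 6.95 and 19.2 ± 0.366 and overlapped likewise, and cana was lowest at 7.79 ± 1.08. In mutants pav, at 48.7 ± 1.91 CPM per kb (n = 5), lay below Klp61F, at 52.0 ± 0.525. cmet, at 8.06 ± 0.435 CPM per kb, overlapped cana, at 7.72 ± 0.164, and nod lay above neb.

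The shortfall of control library 2 followed exon length. Over the tested genes with a length in BDGP6 (7899, or 87.0%), its level as a percentage of the mean of control libraries 1 and 3 had a median of 113.5% for genes under 1 kb, 100.6% for those of 2 to 3 kb and 73.4% for those of 6 kb or more. Across 6106 genes of at least 5 CPM, which share these libraries and are not independent replicates, Spearman's rho between this ratio and length was -0.64 and Pearson's r was -0.34. Among the motors the percentage was 57.1% for cmet, 77.8% for cana and 77.6% for Klp10A, the 3 longest, and 86.7% to 108.8% for the other 7. The difference between the median log2 level of genes of 6 kb or more and of those of 1 to 2 kb, each relative to the mean of all libraries, was -0.51 in control library 2 and between -0.01 and 0.15 in the other 7 libraries.

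**Figure D3:**
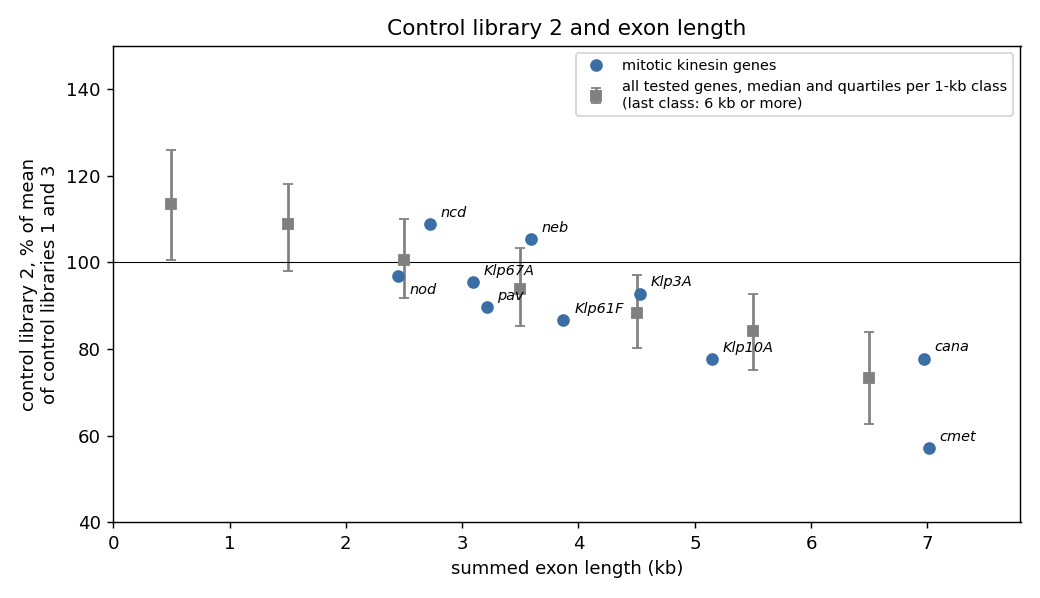
Level in control library 2 as a percentage of the mean of control libraries 1 and 3, against summed exon length in kb, for the 10 motors (blue points) and for all tested genes in classes of 1 kb (grey squares, median and quartiles, with the last class holding 6 kb or more). The medians decline from 113.5% to 73.4%, and the lowest motors are the 3 longest, cmet, cana and Klp10A.

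Each of 2 fits that deal with this trend called all 10 motors lower. The first left out control library 2, and it called 19.1% of the genes it tested lower. The second kept all libraries and removed each library's trend with exon length, and it called 19.4% of its tested genes lower. In the second fit, which was chosen after the trend had been seen, the log2 fold change was -1.72 ± 0.09 (SE) for cmet, -0.17 ± 0.03 for cana and -0.22 ± 0.04 for Klp10A, with edgeR adjusted p-values of 2e-06, 0.00086 and 0.0027. The other 7 motors lay between -1.10 and -0.35. When counts were added up within each biological replicate that the descriptions name, the count was 8 of 10, beside 7.53% of the genes tested in that fit. That fit had 1 control sample against 2 mutant samples and assumed the lone control sample to vary like the mutant ones, so it holds no check on the spread between control animals.

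**Figure D4:**
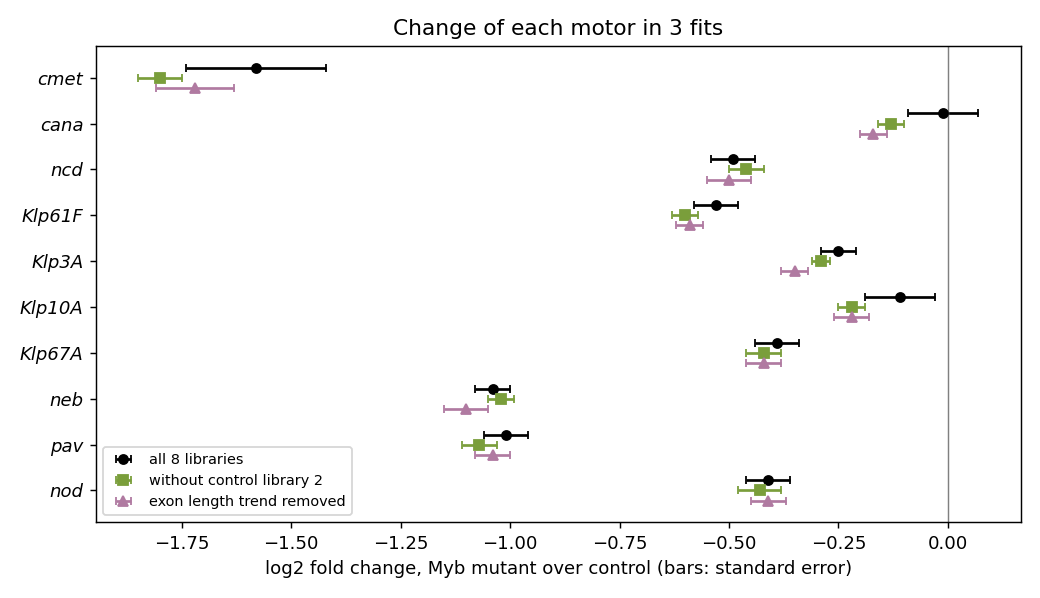
Log2 fold change of each motor, Myb mutant over control, with its standard error, in the fit of all 8 libraries (black circles), without control library 2 (green squares) and with each library's exon length trend removed (purple triangles). The values for cana and Klp10A move away from 0 in both of the latter fits, and cmet has the lowest value in each of the 3 fits, followed by neb and pav, which swap places without control library 2.

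A divergent neighbour within 1000 bases that did not overlap the motor was annotated for 6 of the 10 motors, cmet and cana counting for each other. This look at neighbours was chosen after the values had been seen. The neighbour of neb is pr, which encodes an enzyme of eye pigment synthesis, with 299 bases between the starts. It was at 32.9 ± 1.03 CPM in controls (SD, n = 3) and 31.5 ± 1.66 CPM in mutants (n = 5), with a log2 fold change of -0.06. The ratio of neb to pr differed by -0.98 on the log2 scale, in 5 of 5 mutant libraries beyond all controls (exact permutation p = 0.0357, and 0.0714 after adjustment over 4 such pairs).

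Klp3A starts 145 bases from mit(1)15, now named Zw10, whose product recruits dynein to kinetochores. That gene was at 149.1 ± 1.55 CPM in controls and 141.5 ± 5.24 CPM in mutants (log2 fold change -0.08, edgeR adjusted p = 0.17), and its ratio with Klp3A differed by -0.18 (exact permutation p = 0.0357, adjusted 0.0714). CG4452, which starts 331 bases from Klp67A, was the only one of these 4 neighbours called lower, at -0.19 (edgeR adjusted p = 0.034), and its ratio with Klp67A differed by -0.20 (exact permutation p = 0.143). For Klp10A and its neighbour CG18292, now named CDK2AP1, with 741 bases between the starts, the ratio differed by 0.02 (exact permutation p = 0.893).

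Exons of 6 motors share bases with a gene on the other strand, and whether the counting used strand is not given in the sources used here. The longest stretches are 424 bases of Klp61F with CG9194, now named galene, and 317 bases of ncd with ca. CG9194 was at 3.17 CPM in controls and 2.15 CPM in mutants, against the 263.0 to 305.7 CPM of Klp61F in controls. ca was at 61.1 CPM in controls and 61.4 CPM in mutants (log2 fold change 0.01), while ncd fell. Some shorter stretches are shared with genes that changed. cmet shares 55 bases with ab, at 0.52 (edgeR adjusted p = 0.0071), and neb 63 with CG10747, at 0.35 (edgeR adjusted p = 0.00066). ncd also shares 100 bases with CG7789, at -0.22 (edgeR adjusted p = 0.043). nod and Klp67A share bases with CG1561 and CG34456, which were not called. The part of shared bases in the counts was not tested. The starts of ncd and ca lie 316 bases apart, but the genes overlap there. This pair was therefore not among the divergent pairs above, and its ratio was not tested.

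Calls among partners of the motors were all downward. Of 10 tested genes for proteins that work with spindle motors or on spindle microtubules, 6 were lower, 0 higher and the other 4 not called. Over all tested genes, 17.5% were lower and 16.9% higher. The median log2 fold change of the partners was -0.33, beside 0.01 over all tested genes. The lowest were aur, which encodes the spindle pole kinase Aurora A, at -1.39 ± 0.05 (SE), and tacc, whose product stabilizes microtubules at centrosomes, at -1.24 ± 0.12, with edgeR adjusted p-values of 2.1e-07 and 9.5e-05. tum, which encodes the other subunit of centralspindlin, was at -0.44 and its partner pav at -1.01, a difference that was not tested. mars, a microtubule-associated protein of the spindle, was at -0.14. All 10 were called lower without control library 2, and 9 with the length trend removed. Those fits called 19.1% and 19.4% of their tested genes lower.

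Calls among the other kinesins went both ways. Of 12 tested, 1 was lower and 3 were higher, beside 17.5% and 16.9% of all tested genes, with a median of 0.14. The one that was lower, sub, encodes Subito, itself a motor of the central spindle, and went from 98.7 ± 2.98 CPM (SD, n = 3) to 70.2 ± 3.58 CPM (n = 5; log2 fold change -0.49, edgeR adjusted p = 8.2e-05). Klp64D and Kap3, a motor and the accessory subunit of the kinesin of cilia and axons, were each at 0.17. Khc, the heavy chain of the cargo kinesin, was at 339.2 ± 6.34 and 341.0 ± 10.2 CPM. Klp54D had 0 counts over the controls and 99 over the mutants, at least 19.2-fold higher against a floor of 3 counts over the control group, at a level of 0.347 CPM. Klp54D and unc-104 had no exon length in BDGP6 and were not in the fit with the length trend removed. Of the rest of this list that fit called 2 lower and 1 higher, beside 19.4% of its tested genes called lower.

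Dynein and dynactin genes, which encode the minus-end motor and its activator, had 2 of 10 lower, a share near the 17.5% of all tested genes, and 0 higher, with a median of -0.15. These were robl, a dynein light chain, at -0.22 and Gl, the largest dynactin subunit, at -0.17. The count was 4 without control library 2 and 4 with the length trend removed, beside 19.1% and 19.4% of the genes tested. Dhc64C had no exon length in BDGP6 and was not in the latter fit. Among 8 tested tubulins, 4 were lower and 2 higher, beside 17.5% and 16.9% of all tested genes, with a median of -0.31. gammaTub23C, the γ-tubulin that nucleates microtubules in somatic cells, was at -0.66 (edgeR adjusted p = 1.9e-05) and alphaTub84B at -0.37. The tubulins that rose were of low level: alphaTub85E at 1.98 and the maternal γ-tubulin gammaTub37C at 3.99, from 0.0452 to 0.72 CPM. betaTub56D, betaTub60D and gammaTub23C had no exon length in BDGP6 and were not in the fit with the length trend removed. Of the other tubulins that fit called 2 lower and 2 higher, beside 19.4% of its tested genes called lower.

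Genes of DNA replication, another process of dividing cells, gave calls in the upward direction. Of 14 tested, 0 were lower and 5 higher, beside 16.9% of all tested genes called higher, with a median of 0.10. Orc1, a subunit of the origin recognition complex, was at 0.31 ± 0.05 (SE, edgeR adjusted p = 0.0014), and Mcm2, of the replicative helicase, and RnrL, of ribonucleotide reductase, were each at 0.21. CDC45L and dup, whose products load or activate that helicase, were at 0.17 and 0.15. Orc1, Mcm3 and DNApol-alpha180 had no exon length in BDGP6 and were not in the fit with the length trend removed. That fit called 6 of the others higher and 0 lower. Without control library 2, 7 were higher and 1 lower.

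**Figure D5:**
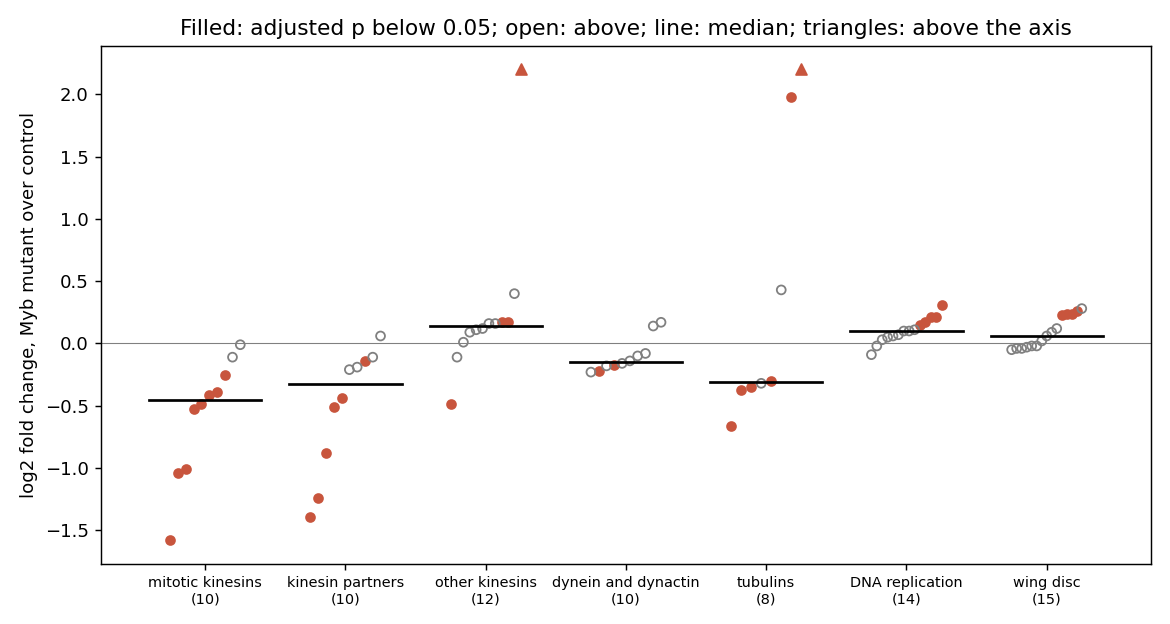
Log2 fold change, Myb mutant over control, of the tested genes of 7 groups, with the number of genes in brackets, filled where the adjusted p is below 0.05, a line at each median and triangles for the genes above the axis. The mitotic kinesins (median -0.45) and their partners (-0.33) lie lowest, and the other kinesins, DNA replication and wing disc genes have medians above 0.

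The profile across libraries most like that of cmet belonged to CG7565. Likeness was the root mean square difference of log2 levels relative to the control mean over the 8 libraries, among 7013 genes of at least 5 CPM, and it was 0.22 for CG7565 and for Sse, which encodes separase, the protease that releases sister chromatids. shu, a cochaperone of the piRNA pathway, and CG7110 followed with 0.24, and tacc with 0.26. In log2 fold change these 5 genes lay between -1.51 and -1.24, a nearness to cmet that the choice by likeness brings about. Relative to control libraries 1 and 3, control library 2 was at 68.0% (tacc) to 95.2% (shu) in them. In cmet it was at 57.1%. The nearest motors were pav at 0.45, the 27th of the 7013 genes, and neb at 0.47, the 30th, whereas the paralog cana was at 1.20.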

How the data were processed

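The members and gene lists were chosen with earlier results of these data known. The authors trimmed reads with Trimmomatic (version 0.22 per the labels), aligned them to gene exons of FlyBase release 5.7 with Bowtie2 version 2.1.0, counted uniquely assigned reads in each exon with eXpress and added these up over the exons of a gene. The deposited values used are these raw counts. The deposited table also holds a log2 fold change, a p-value and an adjusted p-value from the authors' DESeq2 fit, none of which was used. A pooled mitochondrial row (0.574% to 1.34% of counts) was left out.

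Counts were fitted with edgeR 4.0.16 in R 4.3.3 (TMM scaling, filterByExpr, genotype as the only term, quasi-likelihood test, Benjamini-Hochberg adjustment over all tested genes, threshold 0.05). The scripts were tested on simulated data. Levels are CPM on TMM-scaled library sizes, and fitted fold changes can differ slightly from ratios of mean CPM. Pair ratios are log2 values with 0.5 added, compared by a two-sided exact permutation test over libraries. Positions, exon lengths (the union of all exons of a gene) and neighbours come from BDGP6, Ensembl release 115, not from the build of the alignment. Of 121 list entries, 117 were matched in the table, and the others were not used here. The length fit removed a lowess trend of log2 level against log2 exon length from each library through offsets. Genes without a length in BDGP6 were not in it.

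Named genes were all 10 motors, Myb and AlkB, and the 5 nearest to the lowest motor. In each list other than the tissue lists, the 2 called genes with the lowest and the 2 with the highest log2 fold change were also named. Neighbours, Khc, the hemocyte genes and the partner and low-level genes beyond that rule were chosen after their values were seen. Alternatives were RLE scaling, DESeq2 1.42.0, other filters, summed libraries, a replicate block, the mitochondrial row kept, and each library left out. Floors cover counting error only. No sequence is shown, and promoter motifs were not analysed here.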

Additional observations from a re-analysis of the deposited data

Results flagged for a closer look

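One value stood far from the others of its group. In the Myb mutant libraries, cana was at 51.8 CPM in library 4 and at 54.2 to 54.6 CPM in the other 4, a gap larger than Dixon's test allows for 5 samples (critical value 0.71). Chance alone does so in about 1 of 20 groups, and 10 mutant groups were looked at. Library 4 was also the lowest mutant library for Klp10A, at 233.3 CPM, and the highest for Klp61F, Klp3A, Klp67A, neb, pav and nod, at 203.7, 158.1, 100.7, 46.9, 165.2 and 36.8 CPM.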

How the results depend on the processing

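Of the fold changes of the motors under other settings, 160 kept their direction and side of the threshold, 6 newly passed it, 1 no longer did and 3 changed sign. cana was at -0.13 without control library 2 (also without mutant library 1 as well, edgeR adjusted p = 0.02), at -0.17 with the length trend removed, and at 0.05, 0.04 and 0.01 without control library 1, without control library 3 and with a replicate block. Klp10A ran from -0.22 to -0.03 with 1 library left out, and was at -0.22 in all 3 fits that newly called it (edgeR adjusted p of 0.0012, 0.0056 and 0.0027). With libraries left out 1 at a time, the motors called lower numbered 8 to 10, all genes called lower 1191 to 1758 and higher 1183 to 1702, and list genes called lower 18 to 30 and higher 13 to 21.

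The sample numbers did not pair the libraries (correlations of same-numbered deviations 0.32, -0.11 and 0.01). With the replicate block, 647 genes were lower and 750 higher, against 1587 and 1534, list genes numbered 15 and 3, and 7 motors were called, Klp3A being at -0.26 (edgeR adjusted p = 0.05). With counts added up within each biological replicate of the descriptions, 766 genes were lower, 744 higher, and 8 list genes higher. That fit has 1 control sample, assumed to vary like the mutant ones.

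Leaving out 1 library gave log2 ratio differences of -1.68 to -1.45 for cmet and cana, -0.77 to -0.74 for pav and Klp3A, 0.19 to 0.35 for Klp10A and Klp67A, -0.67 to -0.59 for neb and nod, and -0.14 to 0.02 for Klp61F and ncd, which was at 0.02 without control library 1 or 3. None of these can pass 0.05, since the smallest two-sided p is 0.0571 with 3 against 4 libraries and 0.0952 with 2 against 5. The planned share of promoters with a motif was not run, as no genome sequence was used here. Control library 2 limits statements on long genes, and the described replicates limit what the p-values cover.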
